A study of Rattus norvegicus with 4 samples.

Results

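Chromosomes 3, 11 and 12 of the rat carry the nucleolar organizer regions, and their contacts with each other were measured by Hi-C in primary rat Schwann cells. Hi-C joins DNA ends that lie close together in the nucleus, and each joined read pair counts as 1 contact between a pair of places in the genome. All bins of the 3 chromosomes in the rat build rn6 were taken, which gave 322 of the 2629 bins of 1 Mb on the numbered chromosomes, with 178 on chromosome 3, 91 on chromosome 11 and 53 on chromosome 12. They form 3 of the 190 pairs of numbered chromosomes.

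The Schwann cells, the glia that wrap the axons of peripheral nerve, came from sciatic nerve. For 48 hours they had carried 1 of 2 lentiviruses, given at 2 CFU per cell. Lenti-AS drives overexpression of the RNA that is antisense to the promoter of Egr2, and Lenti-GFP is the control virus, which carries GFP. Per the study's methods the vectors of both viruses differ in their reporter, DsRed in the antisense vector and GFP in the control. Each group held 2 libraries, each from its own sample of cells and made with the Arima kit. All 4 libraries were cultured with forskolin and heregulin and all were infected, so no library stands for cells without virus. The labels call the samples independent and do not say whether they came from separate animals, so the spread given here may be partly technical. Hi-C counts carry no marker genes, and the labelled cell type could not be checked with them.

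A nucleolar organizer region is a tandem array of the genes for ribosomal RNA. RNA polymerase I transcribes these genes, and the nucleolus, where ribosomes are assembled, forms around the active arrays. Arrays on different chromosomes can gather in 1 nucleolus, which brings the DNA beside them close together. The arrays consist of near-identical repeats that short reads cannot place, so contacts can be counted only over the unique sequence around them. In RefSeq's gene table of the assembly GRCr8 the ribosomal RNA genes Rn45s, Rn18s, Rn28s and Rn5-8s are neighbours. That table is of another build, so these genes were not placed in rn6 bins, and neither sequence nor gene names are given for the bins below.

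The libraries held 94956821 and 110770015 contacts in Lenti-GFP and 74811640 and 70488877 in Lenti-AS. Depth thus went with the group, and its part in the differences between the groups was not tested. Between 12.6% and 13.0% of the contacts were trans contacts, those between different chromosomes. After 10 kb bins with few contacts had been left out, between 7800775 and 12095829 trans contacts among numbered chromosomes remained per library. On chromosome 12 18.4% ± 0.434 of the contacts were trans, on chromosome 11 14.4% ± 0.162 and on chromosome 3 12.3% ± 0.172 (SD, n = 4 libraries). In the first 20 Mb these shares were 21.1% ± 0.489 on chromosome 12, 15.1% ± 0.200 on chromosome 11 and 21.1% ± 0.415 on chromosome 3 (SD, n = 4). Such shares also occurred outside the set. Chromosome 7 had the highest share in its first 20 Mb, at 25.0% ± 0.597. Chromosome 20 had 20.7% ± 0.395 there and 18.4% ± 0.0857 as a whole (SD, n = 4).

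To determine whether the nucleolar organizer chromosomes contact each other more than other chromosomes do, the contacts of each pair of chromosomes were divided by the number expected from the trans totals of their bins. At a ratio of 1 the observed and the expected counts are equal. None of the 3 pairs exceeded it. Chromosomes 11 and 12 had the lowest ratio of the 3, and all 3 lay below the median of the other pairs.

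Chromosomes 3 and 11 had ratios of 0.932 and 0.933 in Lenti-GFP and 0.929 and 0.926 in Lenti-AS. Their mean was 0.930 ± 0.00361 (SD, n = 4), which ranked 142 among 190 pairs from the highest. These libraries differed by less than 0.01. Chromosomes 3 and 12 had ratios of 0.972 and 0.964 in Lenti-GFP and 0.972 and 0.970 in Lenti-AS. Their mean of 0.969 ± 0.00377 (SD, n = 4) ranked 111. Here the groups overlapped. Chromosomes 11 and 12 had ratios of 0.858 and 0.848 in Lenti-GFP and 0.849 and 0.849 in Lenti-AS, and the mean of 0.851 ± 0.00463 (SD, n = 4) ranked 175.

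The counts behind these ratios were large. The pair with the fewest contacts, 11 and 12, held between 11735 and 18797 contacts per library. In Lenti-GFP replicate 1 its ratio had a 95% Poisson interval of 0.845 to 0.871, which covers counting error only. The other 187 pairs ran from 0.743 to 1.5 with a median of 0.987, and 108 of them lay below 1. Thus the 3 pairs lay inside this range and below its median.

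**Figure D1:**
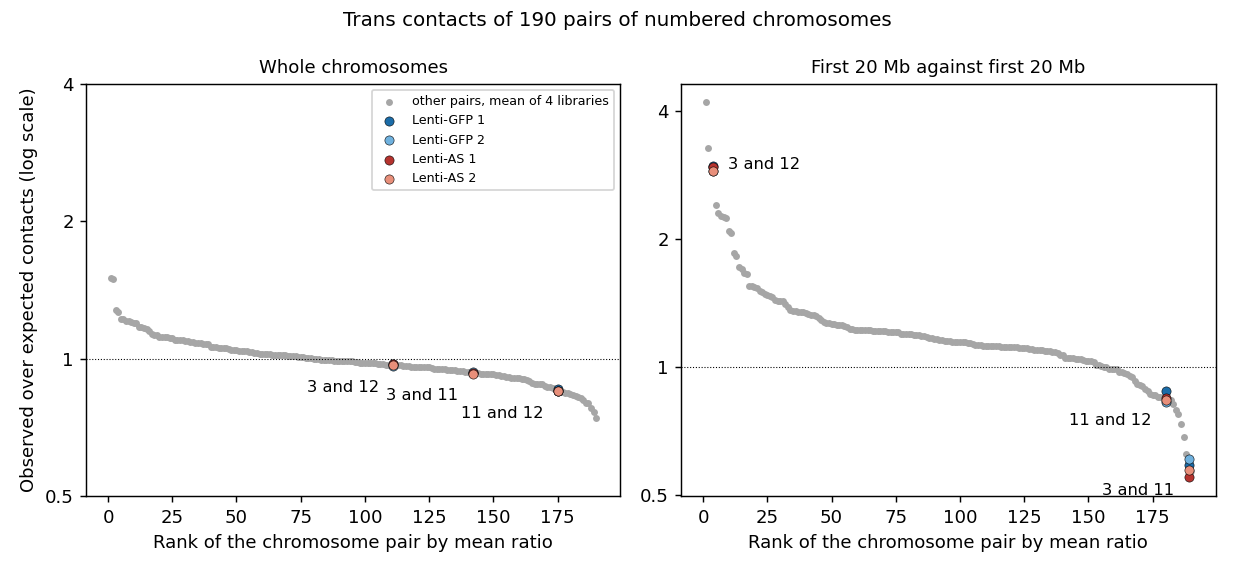
Observed over expected trans contacts (log scale) of the 190 pairs of numbered chromosomes, ranked by the mean of 4 libraries, for whole chromosomes and for the first 20 Mb of both chromosomes. Grey points are means of the other pairs and coloured points are single libraries of the 3 pairs among chromosomes 3, 11 and 12, which rank 111, 142 and 175 as whole chromosomes and 4, 180 and 189 in the first 20 Mb.

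Summed over the 3 pairs, the ratio was compared with that of all other pairs within each library. The log2 difference was -0.10 and -0.11 in Lenti-GFP and -0.11 and -0.11 in Lenti-AS, with a mean of -0.11 ± 0.0039 (SD, n = 4). It was below 0 in 4 of 4 libraries. A two-sided exact permutation of the signs of 4 libraries cannot go below p = 0.125, which this value reached. As the product of trans totals carries an effect of chromosome size, equal contacts need not give exactly 0. With bin weights fitted to the trans matrix, which take a chromosome's own size out of its trans totals, the value was -0.077 ± 0.0032 (SD, n = 4).

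Chromosome 12 had its highest ratio with chromosome 19, at 1.28 ± 0.00785, followed by chromosome 20 at 1.21 ± 0.00782 and chromosome 16 at 1.21 ± 0.0113 (SD, n = 4). Chromosome 3 ranked 11 and chromosome 11 ranked 16 among the 19 partners of chromosome 12. For chromosome 11 the highest partner was chromosome 13, at 1.09 ± 0.00483 (SD, n = 4), and chromosomes 3 and 12 ranked 17 and 19 of 19. The highest partner of chromosome 3 was chromosome 4, at 1.5 ± 0.00525 (SD, n = 4), the highest ratio of all 190 pairs, and chromosomes 12 and 11 ranked 9 and 12. Without bins in a pair at 20 or more times the expected count, chromosome 4 had 1.08 ± 0.0104 (SD, n = 4) and ranked 4 among the partners of chromosome 3. Chromosomes 12 and 11 then ranked 18 and 9 there. Among the partners of chromosome 11, chromosomes 3 and 12 ranked 10 and 19. Among those of chromosome 12, chromosomes 3 and 11 ranked 17 and 15. Hence each of the 3 chromosomes had several partners outside the nucleolar organizer set with more contacts than expected.

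The comparison was repeated among short chromosomes. The 5 shortest, chromosomes 11, 12, 18, 19 and 20, form 10 pairs with a median ratio of 1.10. Chromosomes 11 and 12 had the lowest of these 10 ratios.

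To ask where along the chromosomes contacts lay, the first 20 Mb of each chromosome were set against the rest. The 3 pairs differed in direction. The starts of chromosomes 3 and 12 contacted each other at 2.93 times the expected count. The starts of chromosomes 3 and 11 did so at 0.578 times the expected count, a rank of 189 among 190. The first of these values rested on 1 bin of 10 kb and its neighbour on chromosome 3, without which it was 0.896, as described further on.

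Between the first 20 Mb of chromosomes 3 and 12 the ratio was 2.97 and 2.89 in Lenti-GFP and 2.96 and 2.89 in Lenti-AS, with a mean of 2.93 ± 0.0422 (SD, n = 4) and a rank of 4. Between the first 20 Mb of chromosomes 3 and 11 it was 0.586 and 0.606 in Lenti-GFP and 0.549 and 0.572 in Lenti-AS, with a mean of 0.578 ± 0.0242 (SD, n = 4) and a rank of 189. Between the first 20 Mb of chromosomes 11 and 12 it was 0.877 and 0.825 in Lenti-GFP and 0.843 and 0.837 in Lenti-AS, with a mean of 0.845 ± 0.0223 (SD, n = 4) and a rank of 180. The difference between the pair 3 and 12 and the other pairs of the set was many times the spread between libraries with all bins. Without the 10 kb bins of chromosome 3 between 30 and 50 kb, the pair 3 and 12 had 0.896 ± 0.0140 and the pair 11 and 12 had 0.864 ± 0.0232 (SD, n = 4).

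Away from the starts the order was another. In the rest of both chromosomes, beyond 20 Mb, the ratio was 0.997 ± 0.00831 for chromosomes 3 and 11, 0.779 ± 0.0129 for chromosomes 3 and 12 and 0.919 ± 0.00469 for chromosomes 11 and 12 (SD, n = 4). Thus chromosomes 3 and 12 had the highest ratio of the 3 pairs at their starts and the lowest beyond them. Summed over the 3 pairs, the first 20 Mb over the rest gave a log2 ratio of 0.77 and 0.71 in Lenti-GFP and 0.68 and 0.67 in Lenti-AS, with a mean of 0.71 ± 0.042 (SD, n = 4). It was above 0 in 4 of 4 libraries, with the same smallest exact permutation p of 0.125. This direction turned to -0.24 without the 10 kb bins of chromosome 3 between 30 and 50 kb and to -0.14 and -0.18 in the balanced signal of Lenti-GFP and Lenti-AS. Without the 1% of bin pairs with the highest ratio the value lay within its spread around 0, at -0.011 ± 0.020 (SD, n = 4) with 1 of 4 libraries above 0. A value of 0 is not the level of the other pairs. With all bins, the 187 other pairs had a median ratio of 1.15 between their first 20 Mb, and 33 of them lay below 1. Beyond the first 20 Mb their median was 0.992.

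Strong contacts between chromosome starts also occurred outside the set. Between the first 20 Mb, the ratio was 4.20 ± 0.134 for chromosomes 2 and 7, 3.29 ± 0.0365 for chromosomes 7 and 11 and 2.96 ± 0.185 for chromosomes 11 and 13 (SD, n = 4). Without bins in a pair at 20 or more times the expected count, the start of chromosome 11 had a ratio of 1.10 ± 0.0633 with that of chromosome 7, 1.60 ± 0.128 with that of chromosome 13 and 0.786 ± 0.0366 with that of chromosome 12 (SD, n = 4).

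The values along each chromosome showed where much of the contrast of chromosomes 3 and 12 lay, though not all of it, as given below. On chromosome 3 the contacts with chromosomes 11 and 12, summed, were raised in the first 1 Mb bin, and the next bin lay near 1. With chromosome 12 alone the ratio of the first bin was between 12.6 and 13.5 in the 4 libraries, and with chromosome 11 alone it was between 0.546 and 0.622. The many contacts with chromosome 12 raise the trans total of this bin, which lowers its ratio with chromosome 11. The ratio of chr3:1-1000000 was 5.61 and 5.43 in Lenti-GFP and 5.17 and 5.08 in Lenti-AS, with a mean of 5.32 ± 0.244 (SD, n = 4). Without the 10 kb bins between 30 and 50 kb its mean was 0.864. The following bin, chr3:1000001-2000000, had a mean of 0.974 ± 0.0473 (SD, n = 4). Over all 178 bins of chromosome 3 the median was 0.906, and 15 bins lay above 1.

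On chromosome 12 the bin with the highest mean ratio was again the first. It had 1.81 and 1.64 in Lenti-GFP and 1.62 and 1.59 in Lenti-AS, with a mean of 1.66 ± 0.0964 (SD, n = 4). Without the 10 kb bins of chromosome 3 between 30 and 50 kb, which are described further on, its mean was 0.568. Of the bins of chromosome 12, 52 had at least 100 expected contacts, and their median was 0.887 with 5 above 1. On chromosome 11 the median of the 91 bins was 0.898 with 17 above 1, and the first bin was not raised. The first bin of chromosome 11 had 0.656 ± 0.0229 (SD, n = 4), the lowest of the 91 bins. This bin contacted chromosome 7 at 2.33 times the expected count, and many contacts with 1 chromosome lower the ratios with others. The highest bin of chromosome 11, chr11:87000001-88000000, had 1.13 ± 0.0170 (SD, n = 4). The other bins with the highest ratios were closer to 1. On chromosome 3 these were the bins at 96 Mb with 1.68 ± 0.137, at 177 Mb with 1.24 ± 0.0316, at 2 Mb with 1.10 ± 0.0299 and at 9 Mb with 1.09 ± 0.0664 (SD, n = 4). On chromosome 11 the bins at 31, 83, 72 and 33 Mb had means between 1.08 and 1.12. On chromosome 12 the bin at 33 Mb had 1.21 ± 0.0435 and that at 1 Mb 1.12 ± 0.0184 (SD, n = 4), and those at 34 and 4 Mb had 1.05 and 1.00. Their height is part of how they were chosen. Without the same 10 kb bins of chromosome 3, these 4 bins of chromosome 12 had means of 0.747, 0.750, 0.770 and 0.817, all below 1, while the named bins of chromosomes 3 and 11 apart from the first of chromosome 3 moved by at most 0.01. With all bins kept, none of the 20 bins in the first 20 Mb of chromosome 11 lay above 1, against 11 of 20 on chromosome 3 and 3 of 20 on chromosome 12. The 3 on chromosome 12 were the first bin and those at 1 and 4 Mb. As given above, they lay below 1 without the 10 kb bins of chromosome 3, as did the first bin of chromosome 3.

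**Figure D2:**
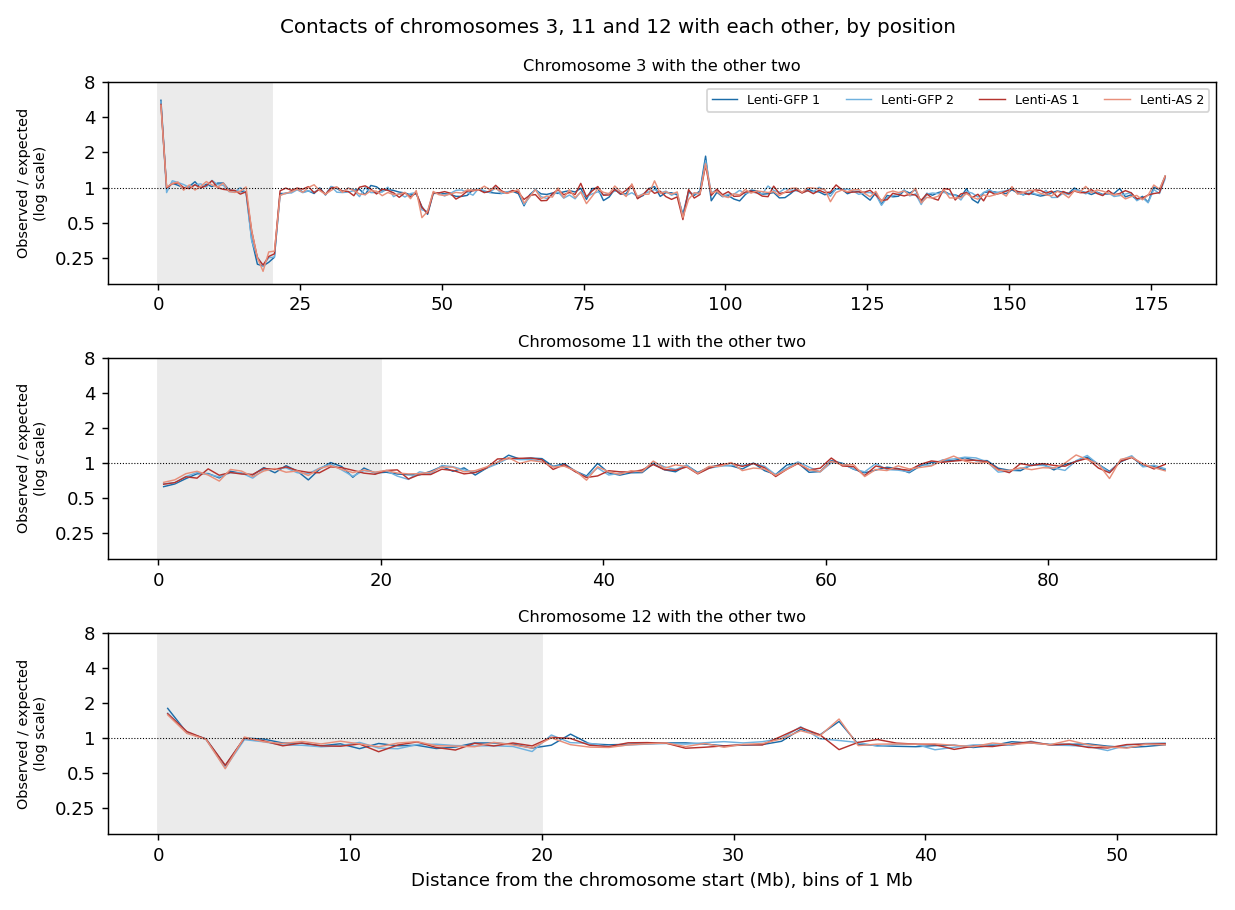
Observed over expected contacts (log scale) of each 1 Mb bin of chromosomes 3, 11 and 12 with the other two chromosomes, against the distance from the chromosome start, with 1 line per library and the first 20 Mb shaded. The first bin of chromosome 3 stands at 5.32, the bins from 16 to 21 Mb of chromosome 3 lie between 0.208 and 0.388, and the lines of the 4 libraries lie close together.

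The low stretch of chromosome 3 lay from 16 to 21 Mb. Its 5 bins had mean ratios with chromosomes 11 and 12 of 0.388 ± 0.0407, 0.244 ± 0.0161, 0.208 ± 0.0114, 0.253 ± 0.0213 and 0.265 ± 0.0155 (SD, n = 4). In the same bins the contacts with chromosome 4 were between 8.54 and 11.2 times the expected count. As the expected counts use the trans total of each bin, a bin with many contacts with 1 chromosome gets lower ratios with all others. The bins at 46, 47 and 92 Mb, with 0.638, 0.610 and 0.558, were also low and contacted chromosome 13 at 6.90 and 7.01 times and chromosome 10 at 7.44 times the expected count.

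Single pairs of 1 Mb bins pointed to the same place. Of 30455 pairs of 1 Mb bins among the 3 chromosomes, 48 held at least 20 contacts at 5 or more times the expected count, and 25 of these involved the first bin of chromosome 3. All 11 pairs at 20 or more times the expected count involved it. The pair with the highest ratio joined the first bins of chromosomes 3 and 12 with 9426 contacts, at 141 and 125 times the expected count in Lenti-GFP and 117 and 119 times in Lenti-AS.

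Without the first bin of chromosome 3, the pair with the highest ratio joined the ends of both chromosomes. The bins chr3:177000001-177699992 and chr12:52000001-52716770 shared 126 contacts, at 11.1 and 11.9 times the expected count in Lenti-GFP and 13.9 and 13.9 times in Lenti-AS. The bins chr3:119000001-120000000 and chr11:39000001-40000000 shared 49 contacts, at 11.1 and 11.5 times in Lenti-GFP and 10.5 and 12.6 times in Lenti-AS. The next pairs held between 20 and 98 contacts in all 4 libraries together, so that single libraries held as few as 2, and their ratios were between 6.36 and 10.2. These pairs were among the 10 pairs with the highest ratio, with at most 2 pairs allowed per bin, so their height is part of how they were chosen.

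At 10 kb the first bin of chromosome 3 came down to 1 bin. The bin chr3:40001-50000 held 42816 trans contacts over the 4 libraries, the most of all 278214 bins of 10 kb and 142 times the median of 302 for the bins used on chromosome 3. Of its trans contacts, 53.0% (95% Wilson interval 52.0 to 53.9) and 51.3% (50.4 to 52.1) were with chromosome 12 in the Lenti-GFP libraries. In the Lenti-AS libraries the shares were 48.6% (47.6 to 49.6) and 48.8% (47.7 to 49.9). The intervals cover counting error only. More than 4 in 10 trans contacts of this bin were with chromosome 12 in each of the 4 libraries. With chromosome 12 the bin shared 6064 and 6905 contacts in Lenti-GFP and 4629 and 4087 in Lenti-AS. With the rest of its own chromosome it shared fewer, 1814 and 1738 in Lenti-GFP and 1004 and 987 in Lenti-AS.

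The adjoining sequence did not share this. In the next 100 kb, chr3:50001-150000, chromosome 12 took between 2.87% and 3.46% of the trans contacts. Per library this stretch shared between 28 and 50 contacts with chromosome 12 and between 1789 and 2883 with the rest of chromosome 3. The 10 kb bin contacted chromosome 11 with between 1.53% and 1.75% of its trans contacts, and the adjoining 100 kb with between 3.09% and 4.36%. These are shares of all trans contacts, so the large share with chromosome 12 lowers that with chromosome 11. Scaled to the trans contacts of the partner chromosome (CPM), the 10 kb bin had 10437 with chromosome 12, 495 with chromosome 2, which came second, and 217 with chromosome 11, which ranked 12 of 19. Hence the raised contacts were with chromosome 12 and not with chromosome 11.

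Most of these contacts lay near the start of chromosome 12. The 10 kb bin chr12:460001-470000 took 5170 of the 21685 contacts with chromosome 12, or 23.8%, with 1665 and 1722 in Lenti-GFP and 932 and 851 in Lenti-AS, as raw counts from libraries of unequal depth. The bin chr12:1510001-1520000 followed with 959. Along the rest of chromosome 12 the contacts rose and fell in step with those that chromosome 12 makes with itself from chr12:470001-570000. Across the 51 bins of 1 Mb from 2 Mb on, Pearson's r of the log counts was 0.893 and Spearman's rho 0.917. These points share libraries, bin size and coverage along chromosome 12, and the correlation is given as a description. For the adjoining 100 kb of chromosome 3 the same r with the 10 kb bin was 0.579 and rho 0.641. That stretch held few contacts in most bins, which lowers a correlation, so the values cannot be ranked against each other.

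**Figure D3:**
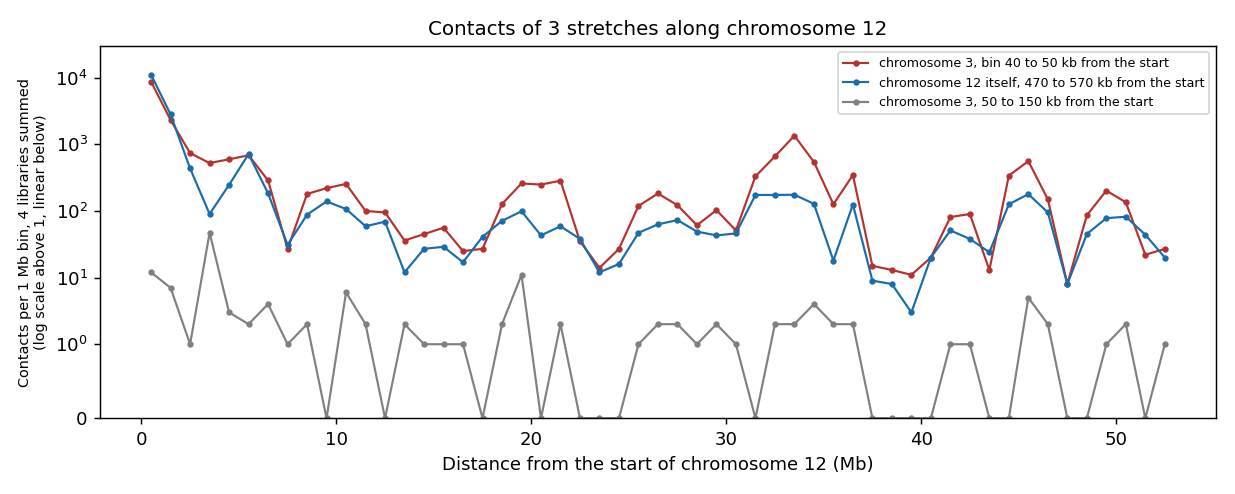
Contacts per 1 Mb bin of chromosome 12 (4 libraries summed; log scale above 1, linear below) made by the 10 kb bin of chromosome 3 that starts 40 kb from the chromosome start, by 100 kb of chromosome 12 itself and by the next 100 kb of chromosome 3. The curve of the 10 kb bin starts at 8714 contacts and follows that of chromosome 12, which starts at 11081, while the next 100 kb of chromosome 3 start at 12.

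This bin carried 17.9% of all contacts between chromosomes 3 and 12 and 65.9% of those between their first 20 Mb. When the 10 kb bins of chromosome 3 between 30 and 50 kb were left out, the ratio between the first 20 Mb of chromosomes 3 and 12 was 0.896 ± 0.0140 (SD, n = 4), with a rank of 172 in place of 4. The ratio of the whole pair became 0.796 ± 0.00679 (SD, n = 4), with a rank of 187 in place of 111. The ratios of chromosome 11 moved by less than 0.02.

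Summed over the 3 pairs, the log2 ratio of the first 20 Mb over the rest then turned from 0.71 to -0.24 ± 0.024 (SD, n = 4) and was below 0 in 4 of 4 libraries. In the authors' balanced 100 kb signal, where the libraries of a group are merged and each bin has the same total, it was -0.14 for Lenti-GFP and -0.18 for Lenti-AS. The preference over the other pairs stayed below 0 in each setting tried, between -0.19 and -0.077. Where the sequence of this bin lies in the genome of these animals was not tested.

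**Figure D4:**
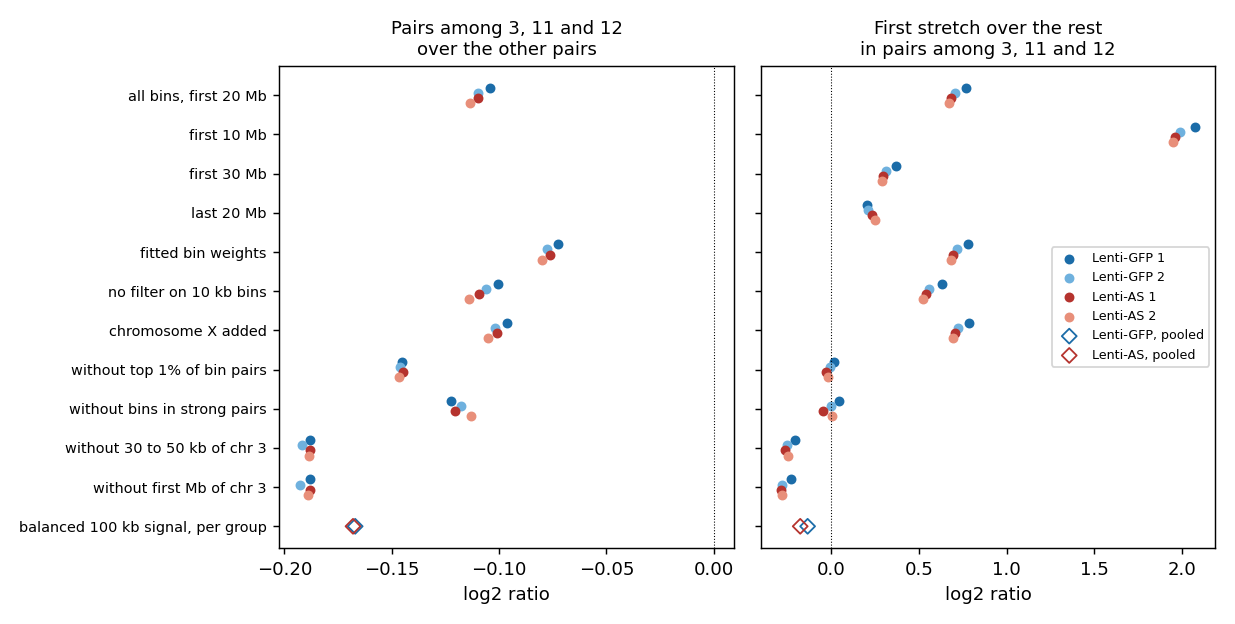
Log2 preference of the pairs among chromosomes 3, 11 and 12 over the other pairs and log2 ratio of their first stretch over the rest, under each setting. Points are single libraries and diamonds are the pooled balanced signal of a group; the preference lies below 0 throughout, while the ratio of the first stretch is 0.71 with all bins and -0.24 without 2 bins of 10 kb on chromosome 3.

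Strong contacts with other chromosomes were common in the set as in the genome. Of its 322 bins, 39 on chromosome 3, 15 on chromosome 11 and 17 on chromosome 12 belonged to at least 1 pair of bins with 20 or more contacts at 20 or more times the expected count. This is 21.9%, 16.5% and 32.1% of the bins, against 22.6% of all 2629 bins. On chromosome 12, such bins at 0, 1, 2, 20, 21 and from 32 to 35 Mb had their highest ratio with the first bin of chromosome 3. Without all bins in pairs at 20 or more times the expected count, the first 20 Mb of chromosomes 3 and 12 had a ratio of 1.32 ± 0.0318. Those of chromosomes 3 and 11 had 0.651 ± 0.0410 and those of chromosomes 11 and 12 had 0.786 ± 0.0366 (SD, n = 4). The ranks of these pairs were 58, 188 and 179. Beyond 20 Mb the pair 3 and 12 then had 0.773. Its log2 ratio of the first 20 Mb over the rest was 0.77 ± 0.030 (SD, n = 4), with a rank of 9 among 190. With all bins it was 1.91 ± 0.034 and ranked 1. Without the 10 kb bins of chromosome 3 between 30 and 50 kb it was 0.19 ± 0.022 and ranked 105. Without the 1% of bin pairs with the highest ratio it was 0.48 ± 0.011 and ranked 41 (SD, n = 4).

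To determine whether the Egr2 antisense RNA changed the contacts among the nucleolar organizer chromosomes, the groups were compared. The log2 preference differed by -0.0045 between Lenti-AS, at -0.11 ± 0.0026, and Lenti-GFP, at -0.11 ± 0.0042 (SD, n = 2), and the libraries overlapped. The log2 ratio of the first 20 Mb over the rest was 0.68 ± 0.0083 in Lenti-AS and 0.74 ± 0.043 in Lenti-GFP (SD, n = 2), and the ranges of the groups did not overlap. Without the 10 kb bins of chromosome 3 the values were -0.21 and -0.25 in Lenti-GFP and -0.26 and -0.25 in Lenti-AS, which overlapped, and the difference between the group means was -0.025 in place of -0.059. An exact permutation test of 2 against 2 libraries cannot go below p = 0.333.

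None of the 3 chromosome pairs passed the quasi-likelihood test of edgeR on all 190 pairs, in which 0.526% were called at an adjusted p below 0.05. Their log2 changes from Lenti-GFP to Lenti-AS were -0.0089 ± 0.0062 for chromosomes 3 and 11 (SE, adjusted p = 0.448), 0.0047 ± 0.0059 for chromosomes 3 and 12 (SE, adjusted p = 0.777) and -0.0070 ± 0.026 for chromosomes 11 and 12 (SE, adjusted p = 1). At an unadjusted p below 0.05 there were 0 of the 3, against 17.9% of all pairs, and DESeq2 also called 0. In size these changes were below 1 in 100. For chromosomes 3 and 11 the groups did not overlap, with means of 0.933 in Lenti-GFP and 0.927 in Lenti-AS, nor did they in the first 20 Mb of that pair, with 0.596 ± 0.0143 and 0.560 ± 0.0163 (SD, n = 2). For the other pairs of the set they overlapped in both. The separation for chromosomes 3 and 11 had an exact permutation p of 0.333 in both cases. That is the smallest value 2 against 2 libraries can give, so no conclusion is drawn from it.

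At finer scale the contacts of 1 Mb bins with whole partner chromosomes were tested. Of 643 such combinations within the set, edgeR called 0 at an adjusted p below 0.05, against 0.0221% of all 49789, and DESeq2 called 0. At an unadjusted p below 0.05 there were 26, against 5.31% of all. The combination with the smallest p was that of chr12:12000001-13000000 with chromosome 11, with ratios of 0.834 and 0.777 in Lenti-GFP and 0.984 and 1.04 in Lenti-AS (log2 0.33 ± 0.075 SE, edgeR adjusted p = 0.0663). Next came the first bin of chromosome 12 with chromosome 3, with ratios of 2.55 and 2.32 in Lenti-GFP and 2.25 and 2.22 in Lenti-AS (log2 -0.12 ± 0.027 SE, edgeR adjusted p = 0.0702). It holds the contacts with the 10 kb bin of chromosome 3. Without the 10 kb bins of chromosome 3 between 30 and 50 kb, 0 of 642 combinations were called by edgeR. The first of these combinations passed with no filter on 10 kb bins (log2 0.34, edgeR adjusted p = 0.0123). The other passed in 3 fits, with an edgeR adjusted p of 0.0366 with the replicate number as a block, of 3.38e-06 with no filter on 10 kb bins and of 3.82e-05 without Lenti-GFP replicate 2. The groups did not overlap in either combination, and both were picked for their small p.

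Pairs of 5 Mb blocks gave no call within the set either. Of 1248 pairs, edgeR called 0, against 0.00377% of all 132795, and DESeq2 called 0. At an unadjusted p below 0.05 there were 62, against 5.68% of all. The smallest adjusted p in the set was 0.608.

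The trans totals of the 1 Mb bins did differ between the groups. A trans total is all contacts of a bin with other chromosomes, given as CPM of the trans contacts of the library with TMM factors. On chromosome 12, 26 of 53 bins were lower in Lenti-AS and 0 were higher. On chromosome 11, 26 of 91 were higher and 16 lower, and on chromosome 3, 33 of 178 were higher and 35 lower. In all, edgeR called 136 of the 322 bins, against 38.2% of all 2623 bins tested, with 59 higher against 21% of all and 77 lower against 17.2% of all. A share near 4 in 10 was thus the rule in the genome, and the set stood near it.

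The median log2 change was -0.075 on chromosome 12, the lowest of the 20 chromosomes, 0.023 on chromosome 11, the second highest, and -0.014 on chromosome 3. Shifts to 1 side also occurred outside the set. On chromosome 10, with a median of -0.054, 39 bins were lower and 2 higher. On chromosome 2, with the highest median of 0.050, 94 bins were higher and 21 lower. On chromosome 3 many of the higher bins lay between 68 and 105 Mb, and many of the lower ones lay beyond 148 Mb or in the first 15 Mb. The share of trans contacts in all contacts was 12.6% and 12.8% in Lenti-GFP and 13.0% and 13.0% in Lenti-AS, and its part in these differences was not tested. On each numbered chromosome the mean trans share of its own contacts was higher in Lenti-AS than in Lenti-GFP. The means were 15.8% against 15.3% on chromosome 13 and 15.1% against 15.0% on chromosome 17. On chromosome 12 the libraries had 18.8% and 18.8% in Lenti-AS and 17.9% and 18.3% in Lenti-GFP. The trans totals of chromosome 12, in contrast, are relative to those of all chromosomes.

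The calls with the largest change were small in size. The bin chr3:99000001-100000000 had 220.8 and 226 CPM in Lenti-GFP and 250.1 and 262 in Lenti-AS (log2 0.19 ± 0.037 SE, edgeR adjusted p = 0.000283). The bin chr3:74000001-75000000 had 159 and 173 in Lenti-GFP and 186 and 195 in Lenti-AS (log2 0.19 ± 0.042 SE, edgeR adjusted p = 0.000766). In chr3:102000001-103000000 the values were 249 and 274 in Lenti-GFP and 301 and 297 in Lenti-AS (log2 0.19 ± 0.037 SE, edgeR adjusted p = 0.000309). In these bins both Lenti-AS libraries lay above both Lenti-GFP libraries. The bins were chosen for their large change in the same libraries, so this separation adds no support.

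Among the bins that were lower, chr3:175000001-176000000 had 335 and 326 CPM in Lenti-GFP and 299.6 and 291 in Lenti-AS (log2 -0.16 ± 0.032 SE, edgeR adjusted p = 0.000421). The bin chr11:87000001-88000000 had 476 and 464 in Lenti-GFP and 424 and 423 in Lenti-AS (log2 -0.15 ± 0.028 SE, edgeR adjusted p = 0.000201). In chr12:17000001-18000000 the values were 555 and 532 in Lenti-GFP and 488 and 493 in Lenti-AS (log2 -0.15 ± 0.030 SE, edgeR adjusted p = 0.000501). Without Lenti-AS replicate 2 none of these 6 bins passed, with adjusted p in edgeR between 0.0672 and 0.169, and without Lenti-AS replicate 1 the bins at 102 Mb of chromosome 3 and 17 Mb of chromosome 12 did not pass. The log2 changes kept their direction and were between 0.16 and 0.20 for the higher bins and between -0.15 and -0.14 for the lower ones without Lenti-AS replicate 2. Without Lenti-GFP replicate 1 they were between 0.13 and 0.18 and between -0.14 and -0.12, and the bin at 102 Mb of chromosome 3 fell to 0.13 from 0.19. Without Lenti-GFP replicate 2 they were between 0.21 and 0.27 and between -0.18 and -0.17. The number of calls moved with the library left out. Within the set it was 12 without Lenti-AS replicate 1, 1 without Lenti-AS replicate 2, 153 without Lenti-GFP replicate 1 and 228 without Lenti-GFP replicate 2, and DESeq2 called 80.

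**Figure D5:**
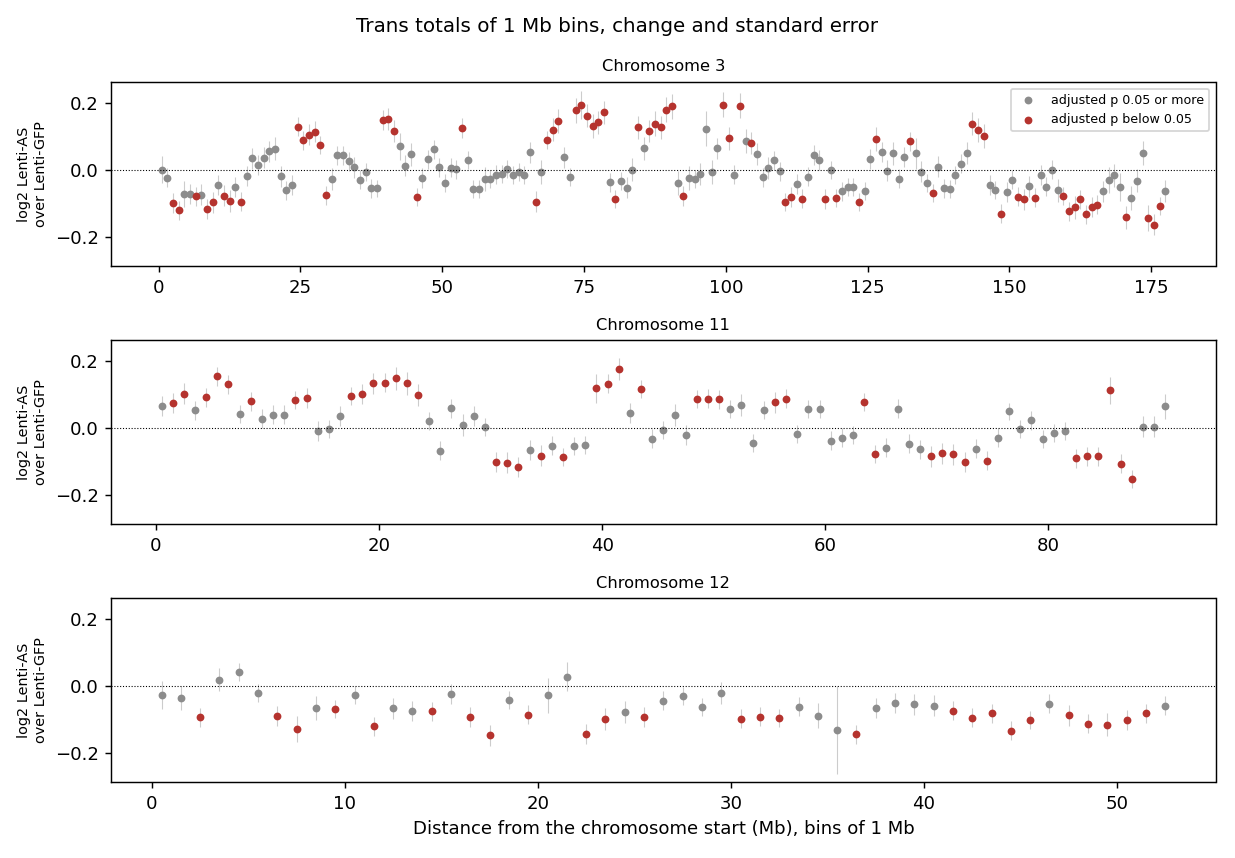
Log2 change from Lenti-GFP to Lenti-AS (points, with the SE as bars) in the trans total of each 1 Mb bin of chromosomes 3, 11 and 12 against the distance from the chromosome start. Red points passed an adjusted p below 0.05 in edgeR; on chromosome 12 all 26 of them lie below 0, while chromosomes 3 and 11 hold red points on both sides.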

How the data were processed

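Hi-C was carried out on 4 libraries. Per the labels the reads were 150 bp pairs. The authors deposited 1 matrix per library whose values are raw counts at 10 kb, and the submitters' processing notes name HiC-Pro and the build rn6 (the version of HiC-Pro is not given in the sources used here). The authors also deposited balanced signal at 100 kb, 1 matrix per group, in which the libraries were merged and each bin scaled to the same total. These merged matrices give 1 value per group, with no error. The 10 kb balanced matrices were not used.

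Groups and replicate numbers were taken from the sample titles. Counts were summed to 1 Mb after 10 kb bins with cis contacts under 0.25 of the median bin had been left out (245649 of 277880 remained on the numbered chromosomes and X). Expected contacts were the product of the trans totals of both bins, scaled to the same total in each library. A ratio of sums does not change with the size of the bins. Named bins were the 5 with the highest ratio per chromosome among those with at least 100 expected contacts, and named pairs the 10 with the highest ratio among those with at least 20 contacts and with at most 2 pairs per bin, and named changes the 3 largest calls in each direction. Bins chosen after their values were seen are the low stretch of chromosome 3, its bins at 46, 47, 92 and 174 Mb and the 10 kb bins. The pair of the first bin of chromosome 11 with chromosome 13 was chosen so too. So were the stretches of chromosome 3 named for their changed trans totals.

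Groups were compared with edgeR 4.0.16 and Benjamini-Hochberg adjustment at 0.05, with group as the only term, offsets from the expected contacts (TMM for trans totals) and a mean count of at least 10. Alternatives were DESeq2 1.42.0, other filters, scalings and stretches, the replicate number as a block and leaving out each library, and 3 that leave out bins were added after seeing the data. Scripts ran in Python 3.11.15 and R 4.3.3 and were tested on simulated data. The chromosomes, stretches and tests were chosen with earlier results of these data known.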

Additional observations from a re-analysis of the deposited data

How the results depend on the processing

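The preference of the pairs among chromosomes 3, 11 and 12 kept its direction under each alternative. It was -0.17 in the balanced 100 kb signal of Lenti-GFP and -0.17 in that of Lenti-AS, and leaving out each library in turn gave -0.111 to -0.108. Bins of 500 kb and 2 Mb gave the same values by construction. The log2 ratio of the first 20 Mb over the rest was 0.69 to 0.72 when each library was left out. It was near 0, at -0.011 ± 0.020 with 1 of 4 libraries above 0, without the 1% of bin pairs with the highest ratio. It turned to -0.14 and -0.18 in the balanced signal of Lenti-GFP and Lenti-AS and, under alternatives chosen after seeing the data, to -0.24 without the 10 kb bins of chromosome 3 between 30 and 50 kb, and to -0.27 without its first 1 Mb bin. Without bins in a pair at 20 times the expected count, also chosen after seeing the data, it was near 0 at -0.0023 ± 0.036 with 2 of 4 libraries above 0. With the first 10 Mb it was 2.00, with the first 30 Mb 0.32 and with the last 20 Mb 0.22.

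The group difference in preference, -0.0045, turned to 0.0018, 0.0018 and 0.0035 under the 3 added alternatives in the same order, and was -0.0074 to -0.0015 when libraries were left out. The group difference in the first 20 Mb over the rest, -0.059, turned to 0.034 for the last 20 Mb and was -0.089 to -0.028 when libraries were left out.

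Counts over all features moved more. For chromosome pairs, 1 was called in the main test, 0 by DESeq2, 0 with TMM factors, 11 with no filter on 10 kb bins, 6 without the 10 kb bins of chromosome 3 and 0 to 38 without 1 library. For bins by partner chromosome, 11 became 4 by DESeq2, 449 with TMM factors, 35 with no filter and 8 to 12 without 1 library. For pairs of 5 Mb blocks, 5 became 0 by DESeq2, 24 with TMM factors, 13 with no filter and 3 to 7 without 1 library. For trans totals, 1002 became 628 by DESeq2 and 14 to 1811 without 1 library. Where a library was left out, the lone library of its group was taken to vary like the other group.

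With the replicate number as a block the counts were 1, 12, 5 and 1221 in the same order, and the 1 chromosome pair was not the one called without it; the mean differences of -0.0045 and -0.059 did not move. Same-numbered libraries deviated together with a correlation of 0.147 for trans totals and between -0.0143 and 0.00349 for the others, and with 2 pairs they share only a number.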

Other observations

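Beyond the 3 chromosome pairs, bins of chromosomes 3 and 11 shared many contacts with single places on other chromosomes, as counts over the 4 libraries together. The bins at 46 and 47 Mb of chromosome 3 shared 12509 and 12828 contacts with chr13:81000001-82000000, at 353 and 355 times the expected count. The bin at 92 Mb shared 7635 contacts with chr10:2000001-3000000, at 327 times, and the bin at 174 Mb shared 2659 contacts with chr6:137000001-138000000, at 331 times. On chromosome 11 the first bin shared 2910 contacts with chr13:1000001-2000000, at 162 times the expected count. These pairs were picked for their height after their values were seen.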
